A study of Mus musculus with 12 samples.

Results

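The translation factors described here are the protein-coding mouse genes whose symbols start with Eif or Eef followed by a number. Of 68 such genes in the gene count table, 65 had counts summing to 120 or more over the 12 libraries and were taken as members, out of 55536 annotated genes in the table and 12145 protein-coding genes above the same minimum. The genes left out were Eif4e1b and Eef1a2, with no count in any library, and Eif4ebp3, with 13 counts. The rule used names and summed counts and no difference between groups, although it was chosen with earlier results of these data known.

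RNA-seq was performed on CD8+ OT-I T cells, which carry a transgenic T cell receptor for an ovalbumin peptide, in C57BL/6J mice. In the Ag group (5 libraries) transferred OT-I cells met antigen in recipient mice together with a control IgG, and in the Ag+Costim group (5 libraries) they met antigen together with agonist antibodies to OX40 (CD134) and 41BB (CD137), 2 costimulatory receptors of the tumor necrosis factor receptor family. Both groups were harvested from spleen and lymph nodes after 4 days, per the labels (the study's methods give a slightly shorter time), and sorted. The Naive group (2 libraries) was OT-I cells from mice that received no antigen, so it differs from the other groups in transfer and host as well as in antigen. All cells share the OT-I transgene, and the study's methods give the donors as Rag-deficient. The study calls the columns of its main RNA-seq heatmaps separate biological replicates. The labels here do not tie libraries to numbered mice, so the p-values below measure the spread between libraries, which may be partly technical.

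The Ag libraries held 45980125, 44575437, 45672104, 24006053 and 42652628 gene counts, the Ag+Costim libraries between 40028682 and 49294934, and the Naive libraries 43491402 and 42342577. Ag library 4, with 24006053, stood far below the rest. Members held between 1.26% and 1.35% of the counts of an Ag library, between 1.45% and 1.72% of those of an Ag+Costim library, and 1.37% and 1.29% of those of the Naive libraries. The Ag and Ag+Costim ranges did not overlap. In bulk RNA, more cells of a type and more RNA per cell cannot be told apart.

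The labelled cell type was checked against markers. The 6 T cell markers (Cd3d, Cd3e, Cd3g, Cd8a, Cd8b1 and Lck, the most abundant) were detected in every library, with a sum between 8597 and 10551 CPM (gene counts scaled to a common library size) across the Ag libraries, between 4571 and 6239 CPM across the Ag+Costim libraries, and of 8840 and 8361 CPM in the Naive libraries. Cd4 stayed at or below 2.39 CPM in every library. The 6 erythroid markers, led by Hba-a1, summed to 979, 2649, 588, 6726 and 1214 CPM in the Ag libraries, 203, 41.8, 211, 54.5 and 14.0 CPM in the Ag+Costim libraries, and 2314 and 168 CPM in the Naive libraries. All 6 were lower in Ag+Costim than in Ag. The sum of the 6 B cell markers lay between 1179 and 1731 CPM across Ag libraries, between 558 and 1141 CPM across Ag+Costim libraries, and at 1172 and 1192 CPM for Naive. Ighm made up most of it, and 2 and 1 of the 6 were at 0 in Naive libraries 1 and 2. The sum therefore hides the other B cell markers. In Ag compared with Naive 5 of the 6 were higher and 0 lower, with a median log2 fold change of 5.06. In Ag+Costim compared with Naive 4 were higher and 1 lower, and in Ag+Costim compared with Ag 0 were higher and 4 lower. The sum of the 6 myeloid markers, led by Lyz2, lay between 60.8 and 195 CPM across Ag libraries, between 83.6 and 139.6 CPM across Ag+Costim libraries, and at 118.5 and 33.2 CPM for Naive. The 5 proliferation markers, led by Birc5, had a sum between 426 and 921 CPM across Ag libraries, between 1779 and 2243 CPM across Ag+Costim libraries, and of 34.0 and 35.7 CPM for Naive, and all 5 were higher in Ag+Costim than in Ag. These marker levels move with the groups compared below, and their part in the results was not tested.

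Translation starts when the small ribosomal subunit, carrying the initiator tRNA on eIF2, is brought to the capped end of an mRNA by the eIF4F complex (the cap-binding protein eIF4E, the scaffold eIF4G and the helicase eIF4A) through the multi-subunit factor eIF3. The subunit scans to a start codon under the control of eIF1, eIF1A and eIF5, eIF2 is recharged with GTP by eIF2B, and elongation factors then move the ribosome along the message. T cells that leave the resting state raise protein synthesis, and control points include the eIF4E-binding proteins, which mTORC1 phosphorylates, and the kinases that phosphorylate eIF2 and block its recharging.

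Expression was tested with edgeR's quasi-likelihood test on the deposited gene counts, in 1 fit over the 12 libraries, and a gene was called higher or lower at a Benjamini-Hochberg adjusted p under 0.05. Of the 18817 genes kept by the filter on low counts, all 65 members were among those tested. CPM values below are scaled with TMM (trimmed mean of M values), and log2 fold changes are given ± their standard error (SE).

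More translation factors were higher than lower with costimulation. Between Ag+Costim and Ag, 51 of 65 members were called, 37 higher and 14 lower, where 53.1% of all genes tested were called either way, 26.6% higher and 26.5% lower. Among protein-coding genes with counts of 120 or more these shares were 62.8%, 34.5% and 28.3%. The median log2 fold change of the members was 0.36, against -0.05 over all genes tested and 0.06 over the protein-coding genes. There were 11 members with a log2 fold change above 1 and 0 below -1. The Ag and Ag+Costim libraries did not overlap for 37 members, where this was so for 39.8% of all genes tested. With upper-quartile scaling in place of TMM the members called were 26 higher and 17 lower, and 39.0% of all called genes were higher instead of 50.1%. That scaling moved the median of all genes to -0.24, and the members' median stood 0.41 above that of all genes under either scaling. Under it 40 of the 51 members kept their call and direction, and none changed sign.

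**Figure D1:**
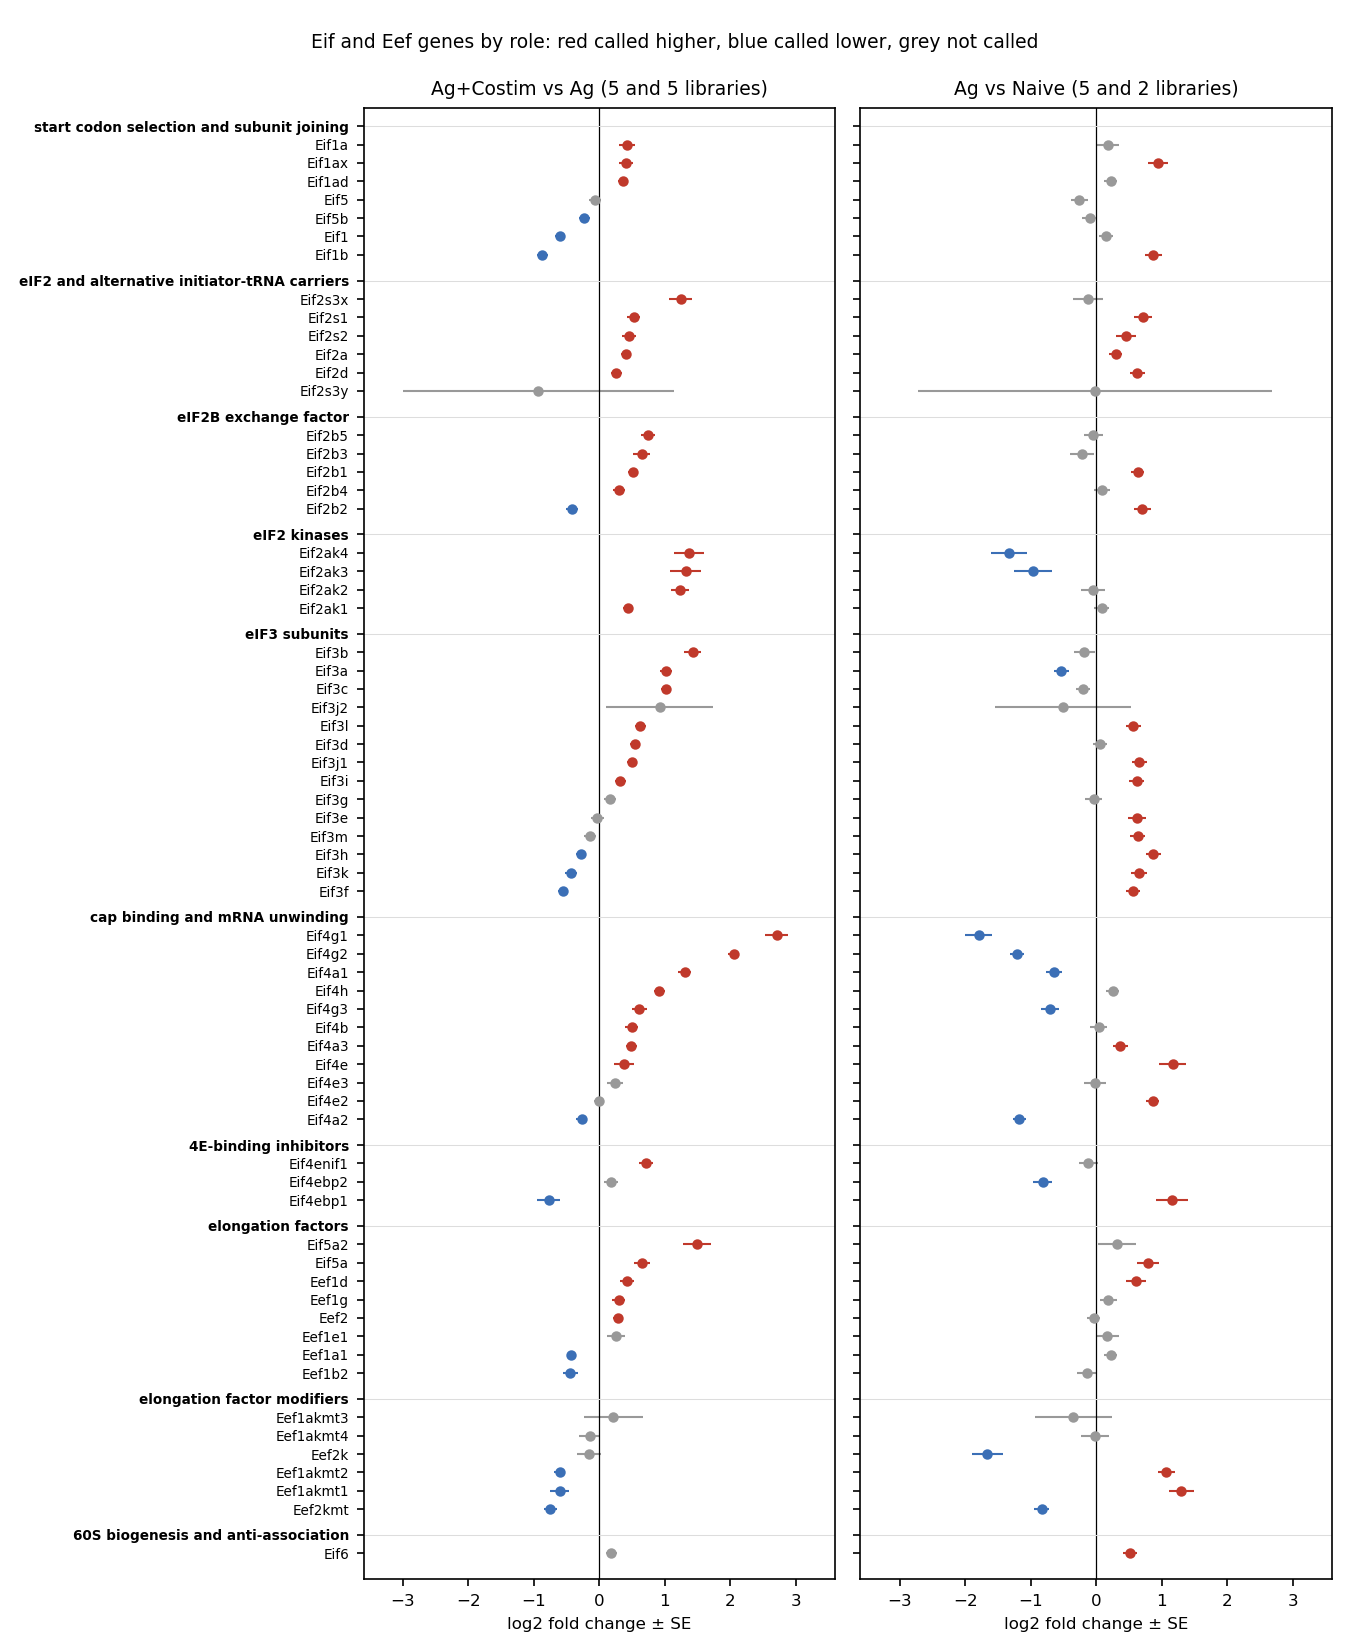
Log2 fold change (edgeR, bars of 1 SE) of the 65 translation factors, 1 point per gene and grouped by role, in Ag+Costim compared with Ag (left) and in Ag compared with Naive (right), with red for genes called higher, blue for lower and grey for not called. On the left Eif4g1 (2.71) and Eif4g2 (2.05) stand farthest to the right and no gene lies below -1, and on the right the same genes lie at -1.80 and -1.21.

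The cap-binding group held the members with the largest rises. Of its 11 members tested 8 were higher, 1 was lower and 2 were not called in Ag+Costim compared with Ag, with a median log2 fold change of 0.49. Eif4g1, which encodes the eIF4G scaffold that joins the cap-binding protein, the helicase and eIF3 (GRCm38, chr16:20668313-20692884, plus strand), had 35.9, 31.0, 28.8, 46.0 and 25.2 CPM in the Ag libraries, 214, 295, 218, 176 and 188 CPM in the Ag+Costim libraries, and 112 and 119.5 CPM in the Naive libraries. Every Ag+Costim library was above every Naive library and every Naive library above every Ag library. Its log2 fold change in Ag+Costim compared with Ag was 2.71 ± 0.18 (adjusted p = 6.22e-08, edgeR).

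Eif4g2, a relative of the scaffold that lacks the eIF4E-binding part (chr7:111067750-111083030, minus strand), followed the same order of groups. It had 338, 374, 346, 367 and 385 CPM in Ag, 1462, 1753, 1546, 1387 and 1354 CPM in Ag+Costim, and 813 and 858 CPM in Naive, with no overlap between any of the groups. The log2 fold change in Ag+Costim compared with Ag was 2.05 ± 0.09 (adjusted p = 3.54e-09, edgeR). Eif4g3, the third scaffold gene, was higher by 0.61 ± 0.11 on the log2 scale.

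The helicase genes moved apart. Eif4a1, the main eIF4A helicase (chr11:69666936-69672423, minus strand), had 332, 334, 359, 277 and 330.3 CPM in Ag, 781, 859, 941, 688 and 752 CPM in Ag+Costim, and 506 and 512 CPM in Naive. Its groups did not overlap, and its log2 fold change was 1.30 ± 0.10 (adjusted p = 1.91e-07, edgeR). Eif4a2, a close paralog of that helicase (chr16:23107444-23114136, plus strand), had 123, 122, 113, 142 and 127 CPM in Ag, 106, 107, 96.3, 108 and 102 CPM in Ag+Costim, and 263 and 303 CPM in Naive. It was the only cap-binding group member called lower in Ag+Costim, with a log2 fold change of -0.27 ± 0.08 (adjusted p = 0.00994, edgeR), and both antigen groups lay below the Naive libraries. In limma fits on gene FPKM (read density scaled to transcript length and library size, summed over the transcripts of a gene) its difference between Ag+Costim and Ag was no longer called. Eif4h and Eif4b, helper proteins of the helicase, were higher by 0.92 ± 0.08 and 0.49 ± 0.10.

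Eif4e, the cap-binding protein itself (chr3:138526179-138559696, plus strand), had 197, 182, 207, 141 and 187 CPM in Ag, 257, 269, 254, 193 and 216 CPM in Ag+Costim, and 60.1 and 103 CPM in Naive. One Ag+Costim library, at 193 CPM, fell inside the Ag range. The log2 fold change of 0.38 ± 0.15 only just passed the threshold (adjusted p = 0.0473, edgeR), and it was not called in 8 of the fits that each left out 1 library. In gene FPKM, which divides by transcript length, the call was lost and Eif4e was at 47.1 ± 12.1 in Ag (SD, n = 5), 47.9 ± 5.69 in Ag+Costim (n = 5) and 46.6 ± 30.9 in Naive (n = 2). The assignment to transcripts varied between libraries. The 4991-base Eif4e-201 held 0% of the transcript counts in Naive library 1 (68.4 FPKM) and 98.3% in Naive library 2 (24.7 FPKM). It held 66.7% in Ag library 2 (67.0 FPKM) and 94.6 to 97.8% in the other Ag libraries (34.6 to 48.4 FPKM). Its part in the lost calls was not tested.

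The proteins that hold eIF4E away from the scaffold did not move as a group. Eif4ebp1, the best known of these inhibitors (chr8:27260329-27276674, plus strand), had 25.8, 23.99, 26.6, 15.98 and 21.5 CPM in Ag, 13.6, 11.3, 12.8, 10.9 and 18.1 CPM in Ag+Costim, and 12.1 and 8.34 CPM in Naive. Ag library 4 (15.98 CPM) and Ag+Costim library 5 (18.1 CPM) overlapped, and the log2 fold change was -0.77 ± 0.18 (adjusted p = 0.00228, edgeR). Eif4enif1, which carries eIF4E into the nucleus and into processing bodies, was higher by 0.71 ± 0.11, and Eif4ebp2 was not called (0.18 ± 0.11).

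Promoter sequences were available for 51 of the 65 members, as 66 promoters in RefSeq on GRCm38.p6, each running from 250 bases before to 50 bases after an annotated start. They were searched for CACGTG, the canonical E-box that MYC and MAX are known to bind at promoters of growth genes. This palindrome, the same on both strands, was in 15 of the 66 member promoters (22.7%), where it was in 2349 of all 32851 promoters (7.15%). By gene, 13 of 51 members (25.5%) and 2187 of all 27025 genes (8.09%) had it. Among members called higher in Ag+Costim compared with Ag 8 of 31 had it, among those called lower 3 of 11, and among those not called 2 of 9. The windows below are shown for members that were called higher, with the word in capitals, and are given 5′ to 3′ on the strand of the gene.
Eif4g1 chr16:20672661-20672690 (plus): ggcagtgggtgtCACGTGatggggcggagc
Eif5a2 chr3:28781148-28781177 (plus): cagggcgagcttCACGTGacggggcgggac
Eif4a1 chr11:69672595-69672624 (minus): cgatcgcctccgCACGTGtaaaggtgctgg
Eif4h chr5:134639488-134639517 (minus): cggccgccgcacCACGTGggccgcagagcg
Eif4e chr3:138527192-138527221 (plus): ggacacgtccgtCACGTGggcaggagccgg
Eif5a chr11:69921443-69921472 (minus): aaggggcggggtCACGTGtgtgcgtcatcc
Eef2 chr10:81176576-81176605 (plus): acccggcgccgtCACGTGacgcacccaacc
Those that follow are from members called lower, among them Eif1b, with the largest fall.
Eif1b chr9:120492570-120492599 (plus): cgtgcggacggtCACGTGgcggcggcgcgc
Eif3f chr7:108934335-108934364 (plus): caagatatgattCACGTGgtataaatttag
Eif3k chr7:28981915-28981944 (minus): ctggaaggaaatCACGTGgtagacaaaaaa
The first base of the word lay 54 bases before the start in Eif4g1, 117 in Eif5a2, 189 in Eif4a1, 24 in Eif1b and 68 in Eif3f. A match of letters is a description and not a binding site.

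Many translation machinery mRNAs are known to start with a C followed by a run of pyrimidines, the feature through which mTORC1 acts on their translation. A C followed by at least 4 further C or T stood at the annotated start of 2 of the 66 member promoters (3.03%), where it stood at 2.51% of all promoters. They were the eIF3 gene Eif3f and the eIF2 gene Eif2s3x, whose start regions are shown with the pyrimidine run in capitals from the start base on.
Eif3f chr7:108934403-108934432 (plus): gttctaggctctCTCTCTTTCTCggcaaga
Eif2s3x chrX:94212634-94212663 (minus): ccgagcattttcCTTTTCTCTCCgagcaag
Eif3f was lower and Eif2s3x higher in Ag+Costim compared with Ag. The search covered the 51 members with a promoter, and a run counted only if it began at the annotated start base itself. A start annotated a few bases off would be missed, so these shares do not tell how many members have such a start. How close the annotated starts lie to those used in these cells was not tested.

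The group of eIF2 and alternative initiator-tRNA carriers had 5 of 6 members higher and 0 lower. The alternative carriers in it were Eif2a (0.41 ± 0.08) and Eif2d (0.26 ± 0.09), and its other members encode the subunits of eIF2. Eif2s1, the alpha subunit that stress kinases phosphorylate (chr12:78861819-78887010, plus strand), had 283, 251.6, 309, 220.4 and 252.3 CPM in Ag, 393, 415, 403, 322 and 362 CPM in Ag+Costim, and 164 and 156 CPM in Naive. Its groups lay in the order Naive, Ag and Ag+Costim without overlap, and the log2 fold change between the antigen groups was 0.53 ± 0.10 (adjusted p = 0.00058, edgeR). With the trend on transcript length removed, this difference was 0.25 and not called. Eif2s2, the beta subunit, was higher by 0.45 ± 0.11.

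The gamma subunit is encoded on both sex chromosomes of the mouse, and its Y copy split the libraries inside every group. Eif2s3y (chrY:1010543-1028847, plus strand) had 133, 131, 0.699, 1.31 and 0.746 CPM in Ag, 73.3, 66.6, 0.429, 0 and 0 CPM in Ag+Costim, and 108 and 0.462 CPM in Naive. The same 5 libraries were high for the Y-linked genes Ddx3y, Kdm5d and Uty. Their summed CPM, taken of total counts without TMM, was 67.5, 72.7, 0.329, 2.502 and 0.258 in Ag, 71.5, 82.1, 1.22, 0.335 and 0.10001 in Ag+Costim, and 188 and 1.99 in Naive. The study's methods name mice of both sexes. Eif2s3y was not called in any comparison (-0.93 ± 2.07, adjusted p = 0.736 in Ag+Costim compared with Ag, edgeR). Its SE shows that this test, which did not separate libraries by Y-linked expression, could not resolve a difference. In the antigen libraries with high Y-linked sums, Eif2s3y was at 133 and 131 CPM in Ag and 73.3 and 66.6 CPM in Ag+Costim. The sums of the other Y-linked genes there, without TMM and so on another scale, were 67.5 and 72.7 in Ag and 71.5 and 82.1 in Ag+Costim. The difference within these libraries was not tested.

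Eif2s3x, the X copy (chrX:94188707-94212862, minus strand), had 25.7, 20.01, 36.6, 35.8 and 36.1 CPM in Ag, 55.3, 66.5, 91.1, 73.5 and 78.6 CPM in Ag+Costim, and 30.9 and 36.5 CPM in Naive. In each antigen group the pair of libraries with high Eif2s3y held the lowest Eif2s3x values, and still no Ag+Costim library overlapped an Ag library. The log2 fold change was 1.25 ± 0.18 (adjusted p = 4.8e-05, edgeR).

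**Figure D2:**
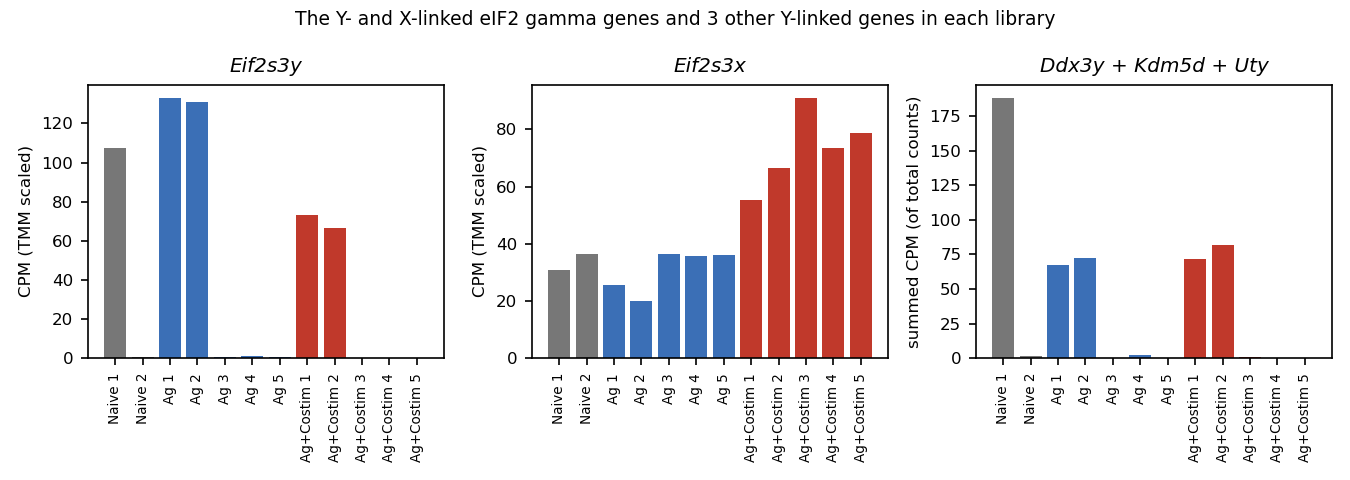
TMM-scaled CPM of Eif2s3y (left) and Eif2s3x (middle) and summed CPM, of total counts without TMM, of Ddx3y, Kdm5d and Uty (right), 1 bar per library, in grey for Naive, blue for Ag and red for Ag+Costim. The 5 libraries with Eif2s3y above 66 CPM are those with high bars in the right panel, whereas Eif2s3x lies between 20.01 and 91.1 CPM in all 12.

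All 4 eIF2 kinases were higher in Ag+Costim than in Ag, with a median log2 fold change of 1.28. Eif2ak4 (GCN2), the sensor of uncharged tRNA, had 3.77, 4.16, 4.43, 8.15 and 6.47 CPM in Ag, 13.7, 18.8, 14.98, 10.5 and 11.6 CPM in Ag+Costim, and 14.2 and 12.8 CPM in Naive. The Ag libraries were the low ones, and Ag+Costim lay at the Naive level, with log2 fold changes of 1.37 ± 0.23 against Ag (adjusted p = 0.000176, edgeR) and 0.04 ± 0.29 against Naive (adjusted p = 0.915). Eif2ak3 (PERK), the kinase of the endoplasmic reticulum, was higher by 1.32 ± 0.23, Eif2ak2 (PKR), which binds double-stranded RNA, by 1.24 ± 0.14, and Eif2ak1 (HRI), the heme-regulated kinase, by 0.44 ± 0.08. Of the 5 subunits of eIF2B, the exchange factor that these kinases act against, 4 were higher, led by the catalytic subunit gene Eif2b5 (0.75 ± 0.11), and Eif2b2 was lower (-0.41 ± 0.10).

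The eIF3 subunits were divided. Of 14, 7 were higher, 3 were lower and 4 were not called, with a median of 0.41. Eif3b, a core subunit (chr5:140419328-140443360, plus strand), had 230.3, 259, 217, 206 and 267 CPM in Ag, 639, 769, 698, 464 and 595 CPM in Ag+Costim, and 283 and 251 CPM in Naive. All 5 Ag+Costim libraries lay above the other 7, and the log2 fold change was 1.43 ± 0.13 (adjusted p = 8.31e-07, edgeR). Eif3a and Eif3c, the large core subunits, were higher by 1.02 ± 0.09 and 1.02 ± 0.08, whereas Eif3f, Eif3k and Eif3h were lower, with log2 fold changes of -0.56 ± 0.08, -0.43 ± 0.09 and -0.28 ± 0.08. Eif3j2 was not called (0.92 ± 0.81). It had 0 counts in Ag library 3 and 20.3 to 35.9 CPM in the other 4 Ag libraries. Its near copy Eif3j1 was at 80.0 CPM in Ag library 3 and 66.8 to 74.2 CPM in the other 4. How reads shared by these 2 genes were split was not tested.

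The start-codon group was divided, with 3 of 7 higher and 3 lower. Eif1b, a near copy of the start-codon factor eIF1 (chr9:120492232-120495330, plus strand), had 105, 91.9, 124, 99.1 and 109 CPM in Ag, 61.6, 51.0, 58.6, 59.4 and 59.2 CPM in Ag+Costim, and 56.5 and 59.0 CPM in Naive. The Ag libraries were the high ones, and its log2 fold change of -0.87 ± 0.09 (adjusted p = 2.59e-06, edgeR) was the largest fall among the members called lower. Eif1 itself was lower (-0.60 ± 0.08), and so was Eif5b, the factor for joining of the ribosomal subunits (-0.23 ± 0.09). Eif1a and Eif1ax, which promote scanning, were higher by 0.42 ± 0.12 and 0.41 ± 0.11, but the Eif1ax difference was -0.043 with the length trend removed. These are near copies, and how reads shared between them were split was not tested.

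Of the 8 elongation factors 5 were higher and 2 were lower. Eif5a2, the rarer form of the hypusine-bearing factor eIF5A (chr3:28781276-28798846, plus strand), had 3.27, 5.53, 2.87, 3.36 and 2.45 CPM in Ag, 9.49, 12.7, 9.002, 10.1 and 8.13 CPM in Ag+Costim, and 2.55 and 3.04 CPM in Naive. It was higher by 1.50 ± 0.22 (adjusted p = 5.43e-05, edgeR). Eif5a, the common form (chr11:69916714-69921958, minus strand), had 1596, 1400.2, 1530.5, 1200.2 and 1212 CPM in Ag, 2362, 2415, 2405, 1650.0 and 2103 CPM in Ag+Costim, and 857 and 749 CPM in Naive, and was higher by 0.66 ± 0.12. Both forms showed no overlap between Ag and Ag+Costim.

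The carriers of aminoacyl-tRNA and of the ribosome went opposite ways. Eef1a1, which delivers aminoacyl-tRNA (chr9:78478449-78489151, minus strand), had 2426, 2216, 2584, 2429 and 2406 CPM in Ag, 1909, 1652, 1759, 1877 and 1782 CPM in Ag+Costim, and 2213 and 1917 CPM in Naive, a log2 fold change of -0.43 ± 0.07. Eef2, which moves the ribosome by a codon (chr10:81176631-81182498, plus strand), had 666, 642, 618, 784 and 668 CPM in Ag, 829.3, 836, 818, 842 and 809 CPM in Ag+Costim, and 724 and 663 CPM in Naive, a log2 fold change of 0.29 ± 0.08. Neither pair of groups overlapped, but the Eef2 difference was 0.09 and not called under upper-quartile scaling or with the length trend removed.

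Of the enzymes that modify elongation factors 0 of 6 were higher and 3 were lower. Eef2kmt, a lysine methyltransferase of eEF2 (chr16:5244152-5255983, minus strand), had 28.2, 33.9, 32.8, 28.2 and 30.2 CPM in Ag, 18.8, 18.6, 16.4, 20.7 and 16.7 CPM in Ag+Costim, and 54.6 and 54.7 CPM in Naive. The order Naive, Ag, Ag+Costim was strict in every library, with a log2 fold change of -0.75 ± 0.09 between the antigen groups (adjusted p = 1.71e-05, edgeR). Eef1akmt1, a lysine methyltransferase of eEF1A, had 93.5, 76.1, 113, 60.002 and 82.0 CPM in Ag, 62.5, 54.4, 55.1, 53.9 and 52.9 CPM in Ag+Costim, and 36.8 and 32.2 CPM in Naive. Its Ag library 4 overlapped Ag+Costim library 1, and the change was -0.61 ± 0.14. Eef1akmt2, another eEF1A methyltransferase, was lower (-0.61 ± 0.09), and Eif6, which keeps free large subunits from joining, was not called (0.19 ± 0.08, adjusted p = 0.0743, edgeR).

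**Figure D3:**
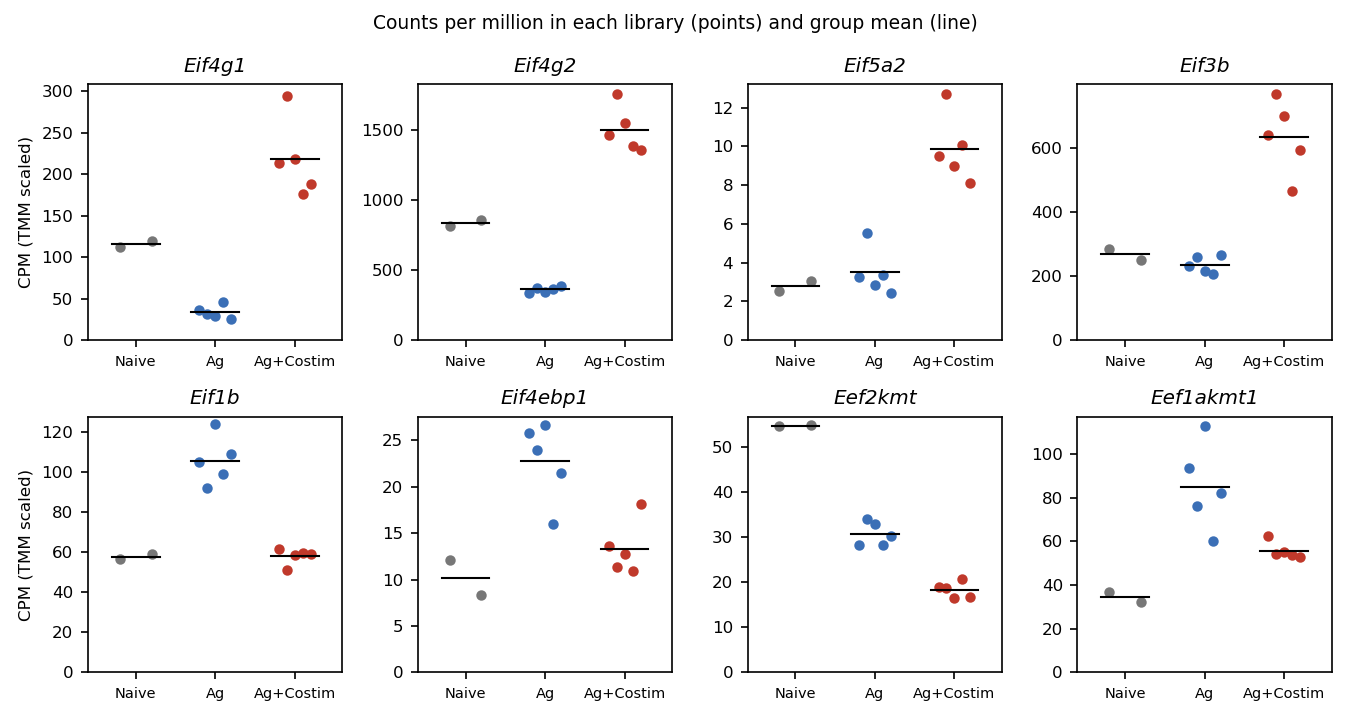
TMM-scaled CPM of the 4 called members with the largest rises (top) and the 4 called members with the largest falls (bottom) in Ag+Costim compared with Ag, 1 point per library and a line at each group mean (n = 2, 5 and 5). Eif4g1 and Eif4g2 are lowest in Ag and highest in Ag+Costim, and Eif1b is highest in Ag, with Naive and Ag+Costim near each other at 57.7 and 58.0 CPM.

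Priming with antigen alone was compared with the Naive libraries next. This comparison shares the Ag libraries with the one above, so the 2 are set side by side. Library measures moved with it. The sequencing core's percent_RiP, which its sheet does not define, was 70.5 and 69.18 in Naive, 70.86 in Ag library 4 and 79.71 to 81.98 in the other Ag libraries. Its percent complexity was 27.44 and 28.4 in Naive, 31.6 in Ag library 4 and 21.64 to 23.82 in the others. Their part in the results was not tested. In Ag compared with Naive, 36 of 65 members were called, 25 higher and 11 lower, where 46.7% of all genes tested were called, 24.2% higher and 22.5% lower. Among protein-coding genes with counts of 120 or more these shares were 57.1%, 29.4% and 27.7%. The median over members was 0.15 and over all genes tested 0.02, and in gene FPKM these medians were -0.051 and -0.11 (limma, pseudocount of 1). Groups did not overlap for 43 members, where this was so for 56.4% of all genes tested. With 2 Naive libraries these counts depend on each of them: they were 22 higher and 10 lower without Naive library 1, and 21 and 10 without Naive library 2.

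Several scaffold, helicase and kinase genes that were higher with costimulation were lower in Ag than in Naive. Eif4g1 fell by 1.80 ± 0.21 on the log2 scale (adjusted p = 1.27e-05, edgeR), and the log2 fold changes of Eif4g2, Eif4a1 and Eif4g3 were -1.21 ± 0.10, -0.64 ± 0.12 and -0.70 ± 0.14. In all, 5 of the 11 cap-binding members were lower and 3 were higher. Eif4a2 fell by 1.17 ± 0.10 (adjusted p = 9.69e-07, edgeR). Of the eIF2 kinases, Eif2ak4 (-1.33 ± 0.28) and Eif2ak3 (-0.96 ± 0.29) were lower, and the other 2 were not called. The Eif2ak3 call did not survive leaving out either Naive library or removing the length trend.

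Eef2k, the kinase that inactivates eEF2 and slows elongation (chr7:120842831-120907450, plus strand), was low in both antigen groups. It had 16.8 and 15.5 CPM in Naive, 3.69, 3.92, 6.22, 7.04 and 4.71 CPM in Ag, and 4.29, 3.81, 4.72, 4.82 and 5.19 CPM in Ag+Costim. It fell by 1.66 ± 0.23 in Ag compared with Naive (adjusted p = 6.36e-05, edgeR) and differed by -0.16 ± 0.19 between the antigen groups (adjusted p = 0.501).

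Higher in Ag than in Naive were Eef1akmt1 (1.30 ± 0.20), Eif4e (1.17 ± 0.21), Eif4ebp1 (1.16 ± 0.25), Eef1akmt2 (1.07 ± 0.13), the scanning factor Eif1ax (0.94 ± 0.15), Eif1b (0.87 ± 0.12), the eIF3 subunit Eif3h (0.87 ± 0.11) and the alternative cap-binding protein Eif4e2 (0.86 ± 0.10). All 8 had an adjusted p below 0.05 in edgeR's test. The Eif4e call was lost in gene FPKM, where its log2 difference was 0.16. There Naive libraries 1 and 2 were at 68.4 and 24.7 FPKM, the opposite order to their 60.1 and 103 CPM. The long transcript Eif4e-201 held 0% and 98.3% of their Eif4e transcript counts. Of the eIF3 subunits 8 of 14 were higher and only Eif3a was lower. Of eIF2 and the alternative initiator-tRNA carriers 4 of 6 were higher, among them the alternative carriers Eif2a and Eif2d. Eif4ebp2, an eIF4E inhibitor, was lower (-0.82 ± 0.14), a call that was lost with the length trend removed.

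The comparison of Ag+Costim with Naive shares libraries with both others. In it, 47 of 65 members were called, 39 higher and 8 lower, where 52.3% of all genes tested were called, 26.9% higher and 25.4% lower. Among protein-coding genes with counts of 120 or more these shares were 59.4%, 33.3% and 26.2%. The members' median was 0.53, and that of all genes tested -0.02. Groups did not overlap for 51 members, where this was so for 66.0% of all genes tested. The largest rises were Eif5a2 (1.82 ± 0.31), Eif4e (1.54 ± 0.22), Eif5a (1.44 ± 0.17), Eif1ax (1.35 ± 0.15), Eif2s1 (1.25 ± 0.14), Eif3b (1.24 ± 0.18), Eif3l (1.19 ± 0.11) and Eif2ak2 (1.18 ± 0.19). The 8 falls were Eef2k (-1.82 ± 0.23), Eef2kmt (-1.58 ± 0.12), Eif4a2 (-1.44 ± 0.10), Eif4ebp2 (-0.64 ± 0.14), the exchange factor Eef1b2 (-0.58 ± 0.15), Eif1 (-0.45 ± 0.10), Eif5b (-0.33 ± 0.11) and the GTPase activator Eif5 (-0.32 ± 0.13). The Eif4e call was lost in all 3 gene FPKM fits, where the Naive libraries stood far apart at 68.4 and 24.7 FPKM. They held 0% and 98.3% of their Eif4e transcript counts in Eif4e-201. The Eif5 call was lost in 11 alternatives, the Eif5b call in 4 (the replicate block, the length trend removed and either Naive library left out) and the Eef1b2 call without Naive library 1, where 5 members were lower instead of 8. Of the eIF3 subunits 10 of 14 were higher and 0 lower. Eif4g1 (0.92 ± 0.23, adjusted p = 0.00429, edgeR) and Eif4g2 (0.85 ± 0.11) ended above the Naive level, the Eif4g1 call being lost in the FPKM fit without a filter, whereas Eif1b ended at it (0.01 ± 0.12, adjusted p = 0.971).

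Levels of different genes were compared in gene FPKM only. Eef1a1 and Eif5a had the highest levels, at 1326 ± 65.7 and 1018 ± 116 FPKM in Ag (SD, n = 5) and 1276 ± 121 and 662 ± 58.9 FPKM in Naive (n = 2). In Ag+Costim the order turned, with Eif5a at 1566 ± 237 FPKM and Eef1a1 at 959 ± 61.6 FPKM (n = 5), and the lowest Eif5a library (1168 FPKM) lay above the highest Eef1a1 library (1034 FPKM). Eif1 followed in Ag at 492.7 ± 21.3 FPKM and was at 319.8 ± 22.3 FPKM in Ag+Costim. Eif4a1 took rank 10 among members in Ag (180.0 ± 10.3 FPKM) and rank 3 in Ag+Costim (433 ± 49.8 FPKM). Eef1d, a subunit of the eEF1A exchange factor, was at 246 ± 42.1 FPKM in Ag and 319 ± 44.3 FPKM in Ag+Costim, within the spread of Eif1 in the latter. The lowest member was Eef1akmt3, a methyltransferase gene, at 0.139 ± 0.0138 FPKM in Ag and 0.158 ± 0.0872 FPKM in Ag+Costim.

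**Figure D4:**
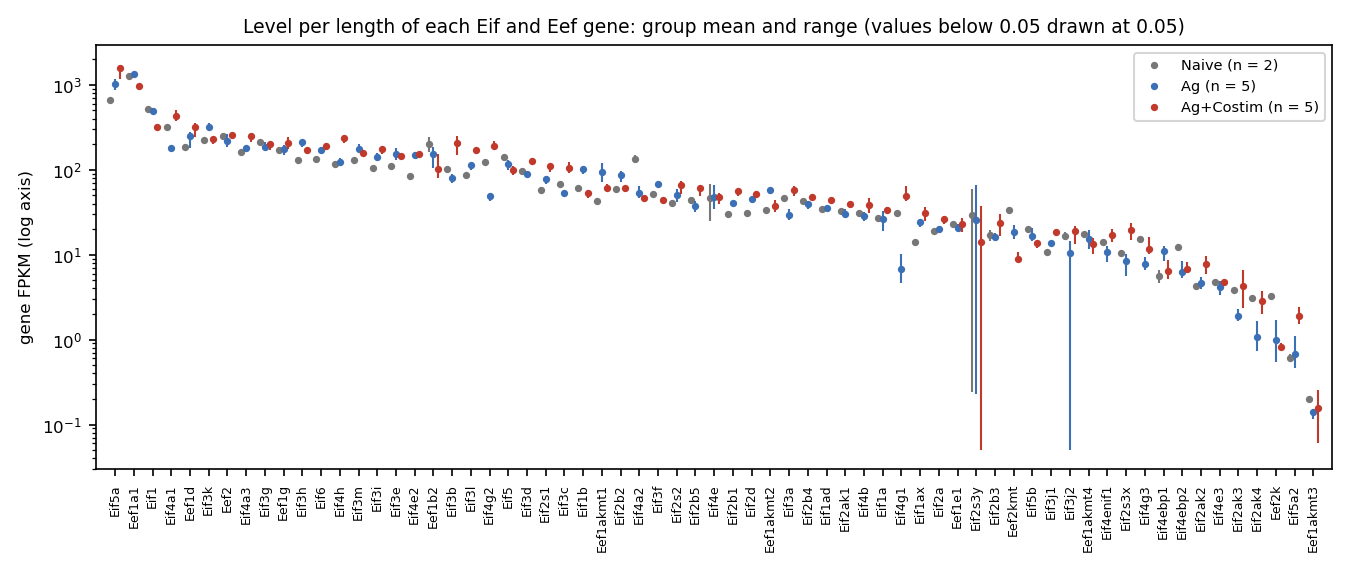
Gene FPKM on a log axis for each of the 65 members in order of their mean, with a point for the mean and a line for the range of Naive (grey), Ag (blue) and Ag+Costim (red), and values below 0.05 drawn at 0.05. Eif5a and Eef1a1 hold the top ranks and Eef1akmt3 the lowest, and the lines of Eif2s3y and Eif3j2 run down to the floor of the axis.

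Transcript length moved with the calls. Between Ag+Costim and Ag the median transcript length was 2942 bases for members called higher, 1651 bases for members called lower and 2278 bases for those not called, and over all genes it was 3163, 1768 and 2062 bases. In Ag compared with Naive the higher members had a median of 1534 bases and the lower ones 5033 bases, where all genes had 1669.5 and 3539 bases. When the trend of each library's counts on transcript length was removed, an alternative chosen after the data were seen, 34 members were higher and 13 lower in Ag+Costim compared with Ag and the median was 0.25. Of the 51 members called in that comparison 40 kept their call and direction, and of the 36 in Ag compared with Naive 27 did. Eif4e (-0.072) and Eif1ax (-0.043) changed sign between Ag+Costim and Ag.

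The make-up of the transcripts was examined in the transcript count table, as the share of a gene's transcript counts in transcripts not annotated as protein coding. Of 53 members that could be tested, 0 were called between Ag+Costim and Ag by the exact permutation test over 5 against 5 libraries, and 0% of all 8357 genes tested were called. The smallest p that the rearrangements of 5 against 5 libraries allow, 0.00794, corresponded to an adjusted p of 0.0578. At an unadjusted p under 0.05 there were 9 members (17.0%), 8 of them with a lower share in Ag+Costim. Of all genes tested 25.9% (2166) had such a p, 1751 of them with a lower share.

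For Eif4a1 the share was 22.9, 16.5, 15.8, 22.1 and 15.9% in Ag, 7.53, 4.61, 5.47, 3.91 and 12.1% in Ag+Costim, and 23.3 and 23.4% in Naive. No Ag+Costim library reached the Ag range (exact permutation p = 0.00794, two-sided, the smallest possible, adjusted 0.0578). Eif2ak2 had the same p and also missed the threshold, at 9.28 ± 4.37% in Ag and 2.03 ± 0.489% in Ag+Costim (SD, n = 5 each). The share in Eif4a2 was 22.6 ± 4.85% in Ag and 33.6 ± 8.76% in Ag+Costim (exact permutation p = 0.0238, adjusted 0.119).

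For Eif4g1, whose gene counts did not overlap between groups, the assignment to transcripts varied between libraries of 1 group. Its share was 80.7, 0.362, 22.9, 71.5 and 21.0% in the Ag libraries, 13.0, 4.88, 13.1, 32.1 and 13.0% in the Ag+Costim libraries, and 12.1 and 13.8% in the Naive libraries. The retained-intron transcript Eif4g1-210 held 79.4, 0, 22.4, 71.2 and 20.7% in Ag, and the coding transcript Eif4g1-203 held 91.5% in Ag library 2 and at most 3.18% elsewhere. Eif4g1-216, a shorter coding transcript picked out after its values were seen, held between 1.53% and 7.95% in Ag libraries, between 12.7% and 50.6% in Ag+Costim libraries, and 29.9% and 35.7% in the Naive libraries. These shares were computed from 1 deposited estimate per library and depend on how reads shared between transcripts were split.

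**Figure D5:**
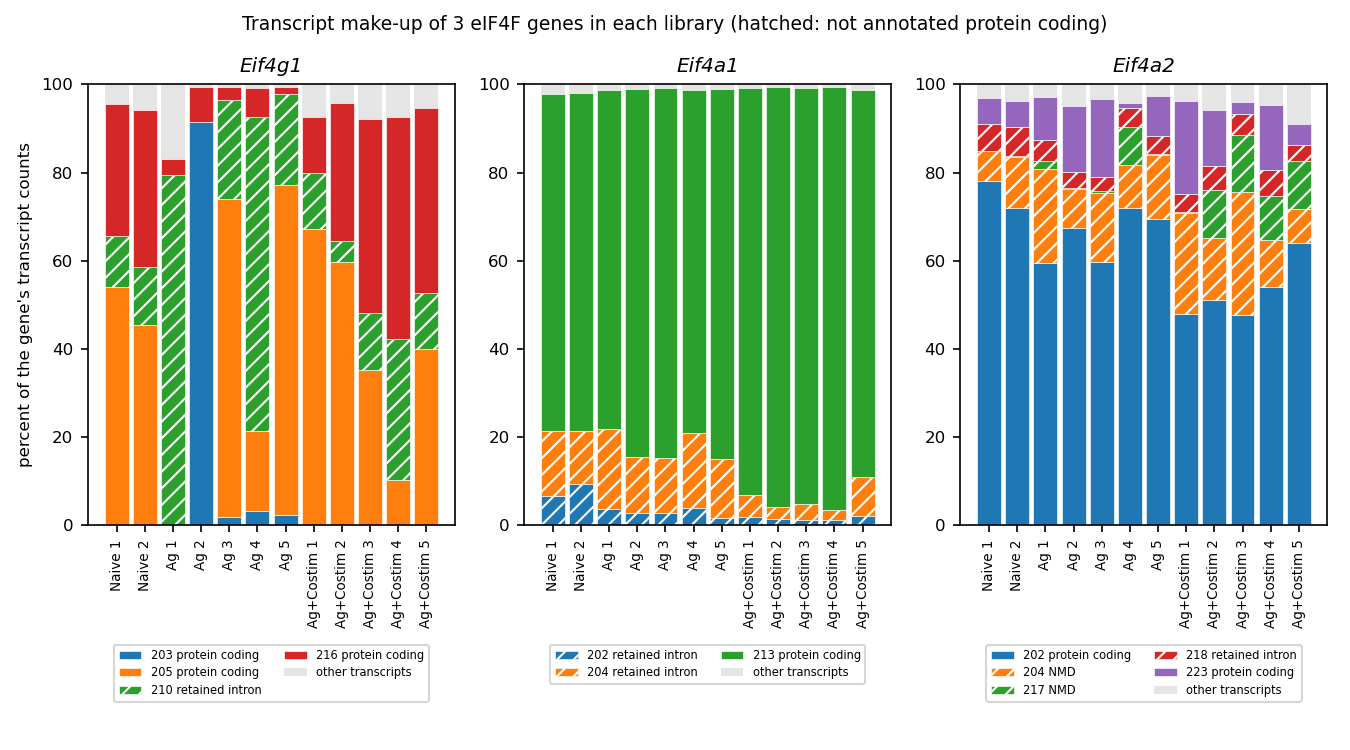
Percent of a gene's transcript counts held by each named transcript, 1 stacked bar per library, for Eif4g1, Eif4a1 and Eif4a2, with transcripts not annotated as protein coding hatched and all unnamed ones in light grey. The hatched part of Eif4a1 is smaller in the Ag+Costim bars than in the Ag bars, and the make-up of Eif4g1 differs from bar to bar within Ag.

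Splicing was deposited as percent spliced in (Psi), the fraction from 0 to 1 of transcripts that include a stretch of a gene (a node), with 1 value per group for Ag and Ag+Costim. There are no replicate values, so no test was made, and the number of reads behind each value was not analysed here. Of 773 nodes in 61 members, 46 differed by more than 0.1 (5.95%), where 7.39% of all 115403 nodes did. These nodes lay in 14 members (23.0%), against 31.7% of the 11077 genes.

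The widest difference of any member node was at the start of Eif4g1. The node chr16:20672746-20672748, 3 bases long, had a Psi of 0.857 in Ag and 0.0304 in Ag+Costim, while chr16:20672755-20672822 had 0.145 and 0.673. Both are alternative transcription starts within the first 100 bases after the RefSeq start at 20672727, shown here with the 3-base node in capitals.
Eif4g1 chr16:20672735-20672764 (plus): cgccggtcacgTGGggcgctggctgcgcct
A 60-base stretch of the same gene set off by alternative acceptor sites, chr16:20674168-20674227, had 0.716 in Ag and 0.141 in Ag+Costim. How far these group values rest on single libraries was not tested.

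Several other large node differences were at transcript ends. Eif2b4, an eIF2B subunit, had an end node chr5:31187568-31187800 at 0.996 in Ag and 0.399 in Ag+Costim. The node of 1 base next to it had 0.00392 and 0.519, and a retained intron chr5:31192771-31192819 of the same gene had 0.322 and 0.147. In Eif4e2 the end node chr1:87226234-87226600 had 0.815 and 0.225, and the 7-base node next to it 0.185 and 0.776. In Eif4a2 the last node chr16:23113948-23114117 had 0.349 and 0.940, next to a node of 1 base with 0.469 and 0.0601. In Eef2k the nodes chr7:120903282-120903496 and chr7:120903497-120904001 had 0.133 and 0.85 in Ag and 0.548 and 0.450 in Ag+Costim. The Eif4e2 ends lie 7 bases apart, and the Eif2b4 ends 1 base apart.

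By the annotation 38 of 65 members overlap another gene, 24 of them on the same strand. Whether reads were shared between them was not tested. Small nucleolar RNA genes lie inside 9 members (13.8%), where this is so for 203 of the 12145 protein-coding genes (1.67%). Among the 9 are Eif4a1, Eif4a2 (Snora81 and Snord2), Eif4g1 (Snord66), Eif3a (Snora19) and Eef2 (Snord37).

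Genes that work with the translation factors were counted in 7 lists. Of the 8 termination and recycling genes 5 were higher and 1 lower in Ag+Costim compared with Ag, led by Pelo (2.01 ± 0.18), which rescues stalled ribosomes, and Abce1 (1.40 ± 0.12), which splits ribosomes after termination. Of the 7 genes of poly(A) binding 6 were higher and 1 lower, led by Larp4 (2.02 ± 0.13) and Paip1 (1.59 ± 0.24), which bind poly(A)-binding protein. Of the 7 genes of eIF5A hypusination and spermidine supply 5 were higher and 1 lower, led by Azin1 (1.35 ± 0.09), an inhibitor of antizyme, and Amd1 (1.17 ± 0.14), which makes the donor for spermidine synthesis. Of the 6 Mnk kinase and eIF4E partner genes 5 were higher and 0 lower, led by Cyfip2 (1.97 ± 0.10), of the family that binds eIF4E, and Mknk2 (1.43 ± 0.15), a kinase of eIF4E.

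The lists around stress and growth signals were mixed. Of the 8 genes of the integrated stress response 2 were higher and 4 lower. Ddit3 (CHOP), a transcription factor of that response, was at 27.5 ± 3.40 CPM in Naive (SD, n = 2), 41.3 ± 2.86 CPM in Ag (n = 5) and 9.54 ± 2.71 CPM in Ag+Costim (n = 5), a change of -2.11 ± 0.17 between the antigen groups (adjusted p = 3.07e-07, edgeR). Ppp1r15a, which directs removal of the phosphate on eIF2, was lower (-1.06 ± 0.10), and Atf4, whose translation that phosphate raises, was not called (-0.07 ± 0.09). Of the 11 genes of mTORC1 and S6 kinase 4 were higher and 4 lower. Tsc2, which restrains mTORC1, was higher by 1.70 ± 0.14, and Pdcd4, an inhibitor of the eIF4A helicase, was lower (-1.41 ± 0.24), at 250.2 ± 19.996 CPM in Naive, 143 ± 20.8 CPM in Ag and 54.0 ± 25.5 CPM in Ag+Costim. Of the 9 mitochondrial translation factors 4 were higher and 3 lower, with Gfm1, an elongation factor, at 0.96 ± 0.13 and Mtif3, an initiation factor, at -0.84 ± 0.10.

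In Ag compared with Naive these lists gave the following counts. In mTORC1 and S6 kinase 8 of 11 were lower and 1 higher, in Mnk kinases and eIF4E partners 4 of 6 were lower and 1 higher, and in poly(A) binding 4 of 7 were lower and 1 higher. The mitochondrial factors had 6 of 9 higher and 0 lower, termination and recycling 4 of 8 higher and 2 lower, hypusination 3 of 7 higher and 1 lower, and the stress response 3 of 8 higher and 1 lower. In Ag+Costim compared with Naive termination and recycling had 7 of 8 higher and hypusination 5 of 7 higher, with 0 lower in either. The mitochondrial factors had 5 of 9 higher and 0 lower, Mnk kinases and eIF4E partners 4 of 6 higher and 1 lower, and poly(A) binding 2 of 7 higher and 1 lower. In mTORC1 and S6 kinase 4 of 11 were lower and 1 higher, and in the stress response 2 of 8 were lower and 1 higher. Background shares for these counts are those given above for each comparison.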

How the data were processed

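RNA-seq libraries of sorted OT-I cells (5 Ag, 5 Ag+Costim, 2 Naive) were made by the authors with SMART-Seq v4 and Nextera XT and read from 1 end. Per the labels and methods, reads were aligned with HISAT2 2.1.0, sorted with SAMtools 1.9 and assembled with StringTie 2.1.0, and the authors tested genes with DESeq2 1.30.1 in R 4.0.5. The deposited gene and transcript counts are derived from StringTie coverage, against GENCODE vM21 on GRCm38 as matched here (55536 of 55536 identifiers). They are not numbers of reads. Ag library 1 had 45980125 gene counts and 44171082 sequenced reads, of which 74.54% aligned. In Ag library 4 and both Naive libraries the gene counts were below the sequenced reads. What this does to the tests was not tested. The strand setting is not given in the sources used here. The authors also deposited FPKM per transcript (summed here by gene name and called gene FPKM), a sheet of percent values per library, and Psi as a fraction per splicing node and group. Columns with the authors' own Psi comparison (difference and probability) hold their findings and were not used, although the analysis plan had named their thresholds, and nodes are shown at a Psi difference over 0.1 instead.

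The 26345 unannotated rows (0.0508 to 0.121% of a library's counts) were left out. Gene counts were fitted with edgeR 4.0.16 (TMM scaling, filterByExpr, robust quasi-likelihood F test, 1 term per group, 18817 genes, Benjamini-Hochberg adjustment), in R 4.3.3. The SE is the log2 fold change over the square root of F. DESeq2 1.42.0, limma 3.58.1 on log2(gene FPKM + 1) or + 0.1, upper-quartile scaling, no low-count filter, 2 groups alone, a replicate block, a length offset and leaving out each library were alternatives. Transcript shares were compared by exact two-sided permutation of 5 against 5 libraries, for genes with at least 20 transcript counts in each. Python 3.11.15, pandas 2.3.3, NumPy 2.4.6 and matplotlib 3.10.9 were used. The edgeR step was tested on simulated data in which 200 genes were changed. Of those with at least 5 CPM changed 2-fold it recovered 85.6% in Ag+Costim compared with Ag (18815 genes) and 60.8% in Ag compared with Naive (18817 genes). Of those changed 1.5-fold it recovered 27.8% and 0% (18817 genes each). In the data 53.1% and 46.7% of genes tested were called. The same adjusted threshold was less strict there, so these recoveries do not carry over to the data.

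Members, role lists and pathway lists were chosen with earlier results of these data known. Named genes are the 8 called members with the largest rise and the 8 with the largest fall in each comparison, the 5 with the highest gene FPKM, a fixed list of 11 members, and the 2 most changed called genes of each pathway list; others are named for their role. Correlations of same-numbered libraries' deviations ran from 0.0159 to 0.0951, so the numbers were not taken as pairs. The level of 1 marker gene is not reported here.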

Additional observations from a re-analysis of the deposited data

Results flagged for a closer look

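In 72 groups of 5 values (library measures and 33 named members in Ag and Ag+Costim), 7 had a highest or lowest value set far from the rest by Dixon's criterion, where chance alone gives about 1 in 20. Ag library 4 had the lowest total gene count of its group, 24006053, and the lowest percent_RiP, a percentage that the sequencing core's sheet does not define, at 70.86. Not among the 7 flagged, it also had the fewest sequenced reads of its group (24714617). Its percent complexity (31.6) and its share of unannotated counts (0.121%) were the highest of the group. Without that library 37 members were higher and 13 lower in Ag+Costim compared with Ag. Ag+Costim library 3 had the highest percent_RiP of its group, 80.28. The Ag+Costim libraries ran from 78.43 to 80.28 in this measure, and the Naive libraries were at 70.5 and 69.18. Among the members, Eef1akmt1 stood high in Ag+Costim library 1 (62.5 CPM), Eif1b stood low in Ag+Costim library 2 (51.0 CPM), and Eif3l (317 CPM) and Eif5b (97.0 CPM) stood apart in Ag+Costim library 4.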

How the results depend on the processing

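Under the alternatives that kept all 12 libraries, members called higher and lower in Ag+Costim compared with Ag ranged from 26 and 17 (upper-quartile scaling) to 39 and 13 (replicate block), with DESeq2 giving 37 and 14. The replicate block, in which the numbers were not shown to pair libraries, gave 25 and 12 in Ag compared with Naive and 41 and 6 in Ag+Costim compared with Naive. The members' median log2 fold change in Ag+Costim compared with Ag was 0.17 under upper-quartile scaling and 0.25 with the length trend removed. In Ag compared with Naive it turned negative in gene FPKM, at -0.051 with a pseudocount of 1, -0.053 with 0.1 and -0.058 without the filter, where the median of all genes was -0.11, -0.13 and -0.0038, and 20 members were higher and 13 lower with a pseudocount of 1. In Ag+Costim compared with Naive it was 0.37 under upper-quartile scaling (37 higher and 9 lower; 43.9% of all called genes higher instead of 51.5%), and 0.29, 0.29 and 0.28 in the 3 FPKM fits (31 higher and 9 lower with a pseudocount of 1). Leaving out 1 library gave 5 to 8 members lower in that comparison, with 5 without Naive library 1. The members followed singly were, for each comparison, its own 8 largest called rises and falls and the fixed list of 11. Of those called in Ag+Costim compared with Ag, 17 of 22 kept their call and direction in all 21 alternatives, in Ag compared with Naive 16 of 20, and in Ag+Costim compared with Naive 14 of 19. Some of these members reversed sign. In Ag+Costim compared with Ag they were Eif4e with the length trend removed (-0.072) and the uncalled Eif6 under upper-quartile scaling (-0.011), where the median of all genes was -0.24. Of the called members not followed singly in that comparison, Eif1ax also reversed with the length trend removed (-0.043). In Ag compared with Naive the uncalled Eef2 gave 0.00906 under upper-quartile scaling, 0.13 with the length trend removed and, leaving out 1 library, -0.10 to 0.025, and the uncalled Eif2s3y gave 0.016 under upper-quartile scaling, 0.00263 with no filter, 2.48 with the block and, leaving out 1 library, -1.02 to 6.84. In Ag+Costim compared with Naive Eif2s3y gave 1.08 with the block and -1.95 to 5.91 leaving out 1 library. The cause of these changes was not tested. Depth limits Eef1akmt3 and other members of a few CPM most, and intervals here cover the spread between libraries only.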
